A study of Homo sapiens with 16 samples.

Results

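Acetylation was mapped at 9 genes that mark or control the epithelial and the mesenchymal state, named for their known roles by a rule that uses no measured value. The choice was made with earlier results of these data known. The epithelial genes were *CDH1*, *EPCAM*, *ESRP1* and *GRHL2*, and the mesenchymal genes were *CDH2*, *VIM*, *ZEB1*, *ZEB2* and *SNAI2*. Each gene was given a window on hg19, drawn to 10 kb and extended by 30 kb on each side, and every listed peak that overlapped a window was a member. The windows held 181 of the 179689 listed peaks, of which 112 lay at the 4 epithelial genes and 69 at the 5 mesenchymal genes. No list had peaks at more than 7 of the 9 genes.

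The study asked how enhancer acetylation differs between ovarian cancer cells that are sensitive or resistant to cisplatin (cPt), and after loss of *MBD3*, a subunit of the NuRD chromatin remodeling complex. A2780, an untreated cPt-sensitive line from an endometrioid adenocarcinoma, was set beside A2780cis, its resistant derivative kept in cPt. CAOV4, an untreated high-grade serous line, was set beside CAOV4cis, made resistant by rising doses of cPt and likewise kept in cPt. H3K27ac was profiled in these 4 lines and in A2780 cells that expressed shMBD3.26 or shMBD3.232, 2 inducible shRNAs against *MBD3*, for 1 week, and H3K9ac in A2780 and A2780cis. The shRNA cells had been engineered for induction by doxycycline (Tet-on), transduced, drug selected, given doxycycline and sorted for GFP. The A2780 cells they were compared with had not, so that the knockdown and these steps cannot be told apart. All lines are labelled as human epithelial ovarian cancer, and each is a single line kept in culture.

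Epithelial cells are held together by E-cadherin, the product of *CDH1*, and carry the adhesion protein *EPCAM* on their surface. The grainyhead-like factor *GRHL2* activates epithelial genes and *ESRP1* directs the epithelial form of splicing, whereas *ZEB1*, *ZEB2* and *SNAI2* (SLUG) bind E-box motifs and repress *CDH1*. Cells that pass through an epithelial to mesenchymal transition lose E-cadherin and gain N-cadherin, the product of *CDH2*, and the intermediate filament vimentin, the product of *VIM*. H3K27ac and H3K9ac mark active promoters and enhancers, and wide acetylated domains are often found at genes that define a cell type.

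Each list gave the start and end of its peaks without a signal value, so the measure used here was the covered length, the number of kb of a window that lay under peaks. It says where acetylation was listed and not how strong it was. The lists held 15365 to 28662 peaks, which covered 78.3 to 98.9 Mb for H3K27ac and 54.5 to 55.2 Mb for H3K9ac. With 1 library per condition, a difference between lists has no replicate check, and how many reads support a peak is not known. As a background, the part of the genome with listed peaks was cut into 16776 tiles of 150 kb, and 56.5% to 65.6% of the tiles held no peak, depending on the list. A window or tile was called higher or lower where the covered length of 1 list was at least 2 times that of the other and differed by at least 2 kb, among those with at least 2 kb in 1 of the lists.

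The covered lengths differed between the A2780 cells and the CAOV4 cells at both groups of genes. At the 4 epithelial genes, H3K27ac covered 20.6 kb in A2780, 31.2 kb in A2780cis, 18.4 kb with shMBD3.26 and 16.8 kb with shMBD3.232, against 175.6 kb in CAOV4 and 203.2 kb in CAOV4cis. At the 5 mesenchymal genes the order was the opposite, with 66.2, 76.6, 41.0 and 38.8 kb in the 4 A2780 lists and 7.4 kb in CAOV4 and 6.8 kb in CAOV4cis. The lists of A2780 cells all derive from 1 line and the CAOV4 lists from another, so they are not replicates. How many tiles differ between them in the same way was not counted. In A2780, the epithelial windows were thus covered to 3.27% and the mesenchymal windows to 7.27%, and in CAOV4 to 27.9% and 0.813%, where the mean over all tiles was 3.92% in A2780 and 3.11% in CAOV4.

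**Figure D1:**
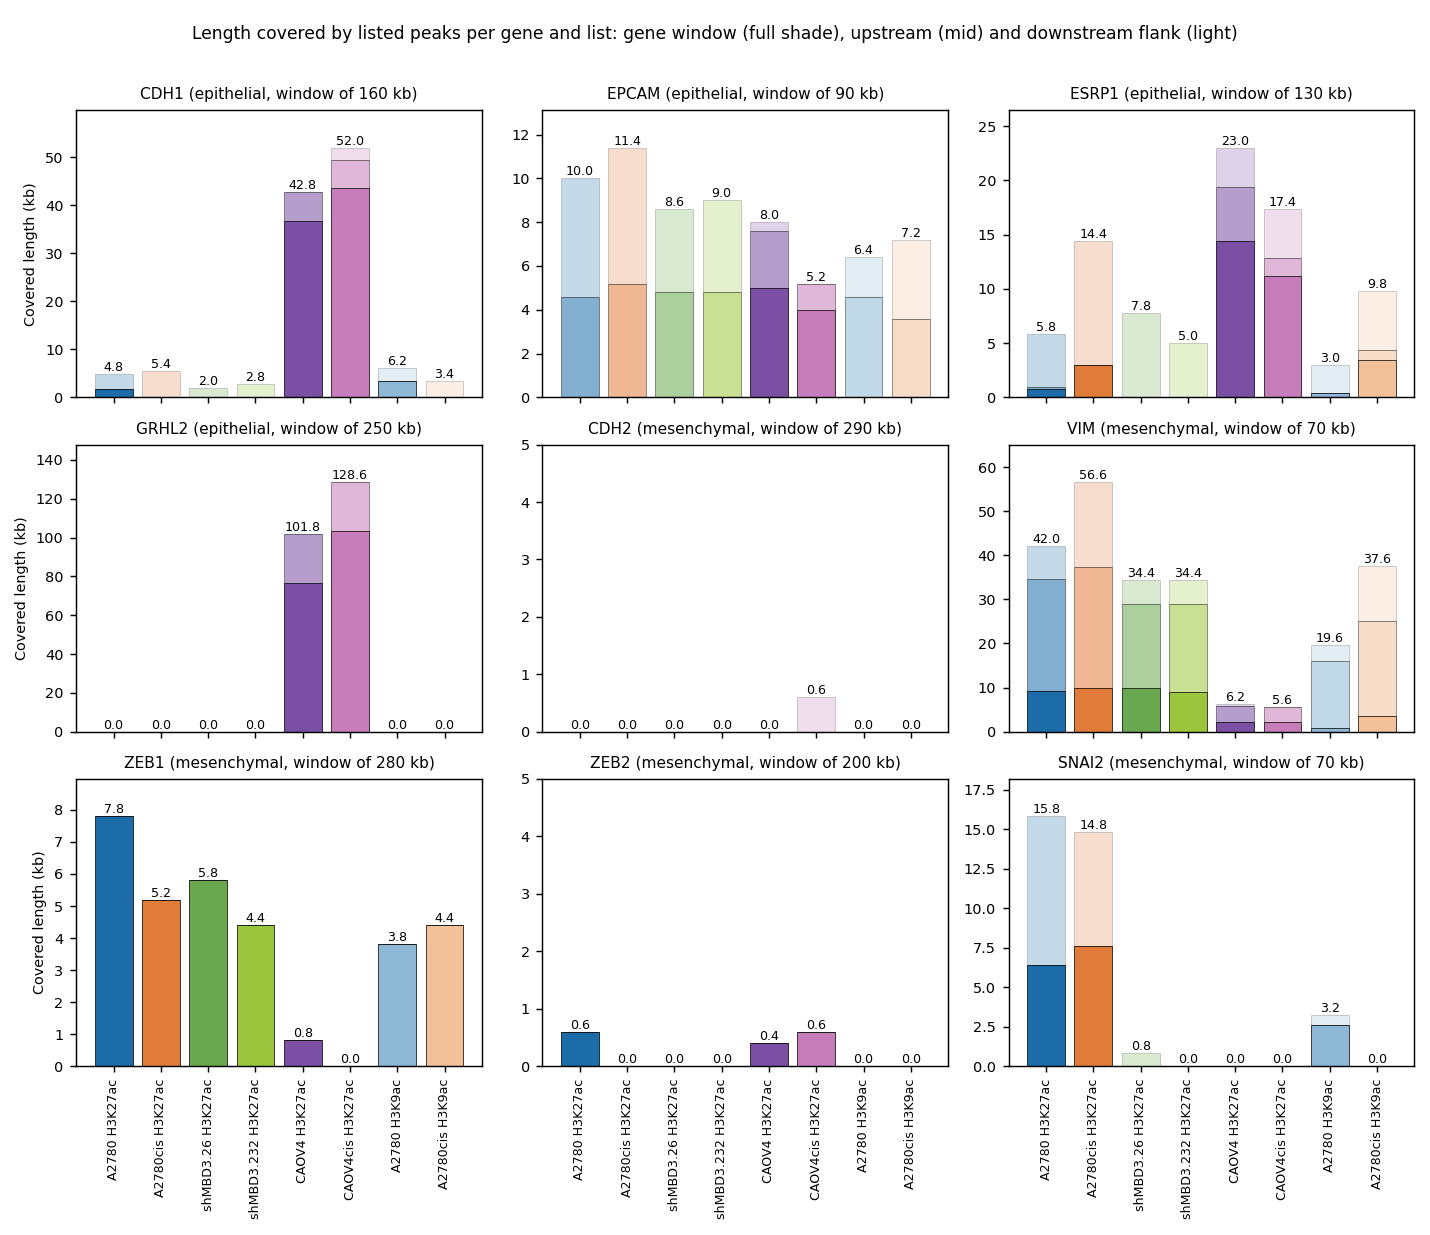
Covered length in kb (y axis, from 0) for each of the 9 genes (panels) in each of the 8 peak lists (x axis), with the gene window in full shade, the upstream flank in a lighter and the downstream flank in the lightest shade. The number above a bar is the sum over the extended window. *GRHL2* had bars in CAOV4 (101.8 kb) and CAOV4cis (128.6 kb) and in none of the 6 lists of A2780 cells. The *VIM* bars for H3K27ac were at 42.0 kb in A2780 and 6.2 kb in CAOV4.

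Between the untreated lines, 6 of the 7 windows with enough covered length were called. *CDH1*, *ESRP1* and *GRHL2* were higher in CAOV4, and *VIM*, *ZEB1* and *SNAI2* were lower, while *EPCAM* was in neither group. Most of these differences reached beyond the windows. By the same rule, the 500 kb on each side was higher in CAOV4 at *ESRP1* (105.4 kb against 49.0 kb) and *GRHL2* (103.2 kb against 12.8 kb). It was lower at *VIM*, *ZEB1* (14.4 kb against 33.0 kb) and *SNAI2* (no peak against 29.2 kb), and neither at *CDH1* and *EPCAM*. The lines differed widely over the genome as well, with 25.7% of the 7310 tiles called higher and 39.2% called lower in CAOV4. The median difference, CAOV4 minus A2780, was −2.0 kb over the 7 windows and −2.0 kb over the tiles. All 3 called epithelial genes were higher and all 3 called mesenchymal genes were lower in CAOV4, a split for which no test was made.

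*GRHL2*, on chromosome 8, stood out among the epithelial genes by the length of its acetylated domain. No peak of the 4 H3K27ac and 2 H3K9ac lists of A2780 cells lay in its window of 250 kb, and the stretch without a peak around it measured 915.6 to 1028.8 kb. In CAOV4, 12 H3K27ac peaks covered 101.8 kb of the window, and in CAOV4cis 18 peaks covered 128.6 kb. The widest of them spanned the start of the gene at chr8:102494001-102542000 in CAOV4, with 48.0 kb, and at chr8:102496001-102534000 in CAOV4cis, with 38.0 kb. They ranked 21 of 23485 and 32 of 25061 by width in their lists. Of the 62 tiles of 250 kb with as much H3K27ac as *GRHL2* in CAOV4, 12 had no peak in A2780, or 19.4%.

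*CDH1*, on chromosome 16, also carried a wide domain in the CAOV4 lines that was not listed in A2780 cells. The covered length was 4.8 kb in A2780, 5.4 kb in A2780cis, 2.0 kb with shMBD3.26, 2.8 kb with shMBD3.232, 42.8 kb in CAOV4 and 52.0 kb in CAOV4cis. CAOV4 was thus covered over 8.92 times the length of A2780. The widest peak lay across the start of the gene, at chr16:68764001-68783600 in CAOV4 and chr16:68766401-68784600 in CAOV4cis, whereas no H3K27ac list of A2780 cells had a peak within 10 kb of this end of the window. What A2780 had at *CDH1* was a pair of short peaks within the gene, of 0.2 and 1.6 kb, and 1 peak of 3.0 kb beyond its 3′ end. The latter was present in all 4 H3K27ac lists of A2780 cells and lies on the side of *TANGO6*, the next gene.

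*ESRP1*, on chromosome 8, had a peak at its start in both CAOV4 lines and, much shorter, in 2 of the 4 lists of A2780 cells. The covered length of the extended window was 5.8 kb in A2780, 14.4 kb in A2780cis, 7.8 kb with shMBD3.26, 5.0 kb with shMBD3.232, 23.0 kb in CAOV4 and 17.4 kb in CAOV4cis, or 3.97 times as much in CAOV4 as in A2780. Among the 937 tiles of 130 kb with as much H3K27ac in CAOV4, 251 had as little in A2780, or 26.8%. At the start, the peak measured 0.8 kb in A2780 (chr8:95654601-95655400), 3.0 kb in A2780cis (chr8:95653201-95656200) and 9.6 kb in both CAOV4 (chr8:95648801-95658400) and CAOV4cis (chr8:95649001-95658600), and none was listed with either shRNA. Most of the length in A2780 cells lay in the downstream flank, on the side of *DPY19L4*, where every list had a peak and the A2780 list covered 4.8 kb.

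*EPCAM*, on chromosome 2, had similar sums in both lines but at different places. The extended window held 10 kb in A2780, 11.4 kb in A2780cis, 8.6 kb with shMBD3.26, 9.0 kb with shMBD3.232, 8.0 kb in CAOV4 and 5.2 kb in CAOV4cis. In the gene window itself, peaks were listed only in CAOV4 (chr2:47595201-47600200, 5.0 kb) and CAOV4cis (chr2:47595601-47599600, 4.0 kb), and all 6 lists of A2780 cells were at 0. The length in A2780 cells came from the flanks, upstream on the side of *EPCAM-DT* and downstream. With the gene window alone, *EPCAM* was called higher in CAOV4, so that all 4 epithelial genes were called in this direction. With the extended window it was not called. Over the tiles of 150 kb, 25.7% were called higher in CAOV4, and the share among stretches as long as these gene windows was not counted.

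**Figure D2:**
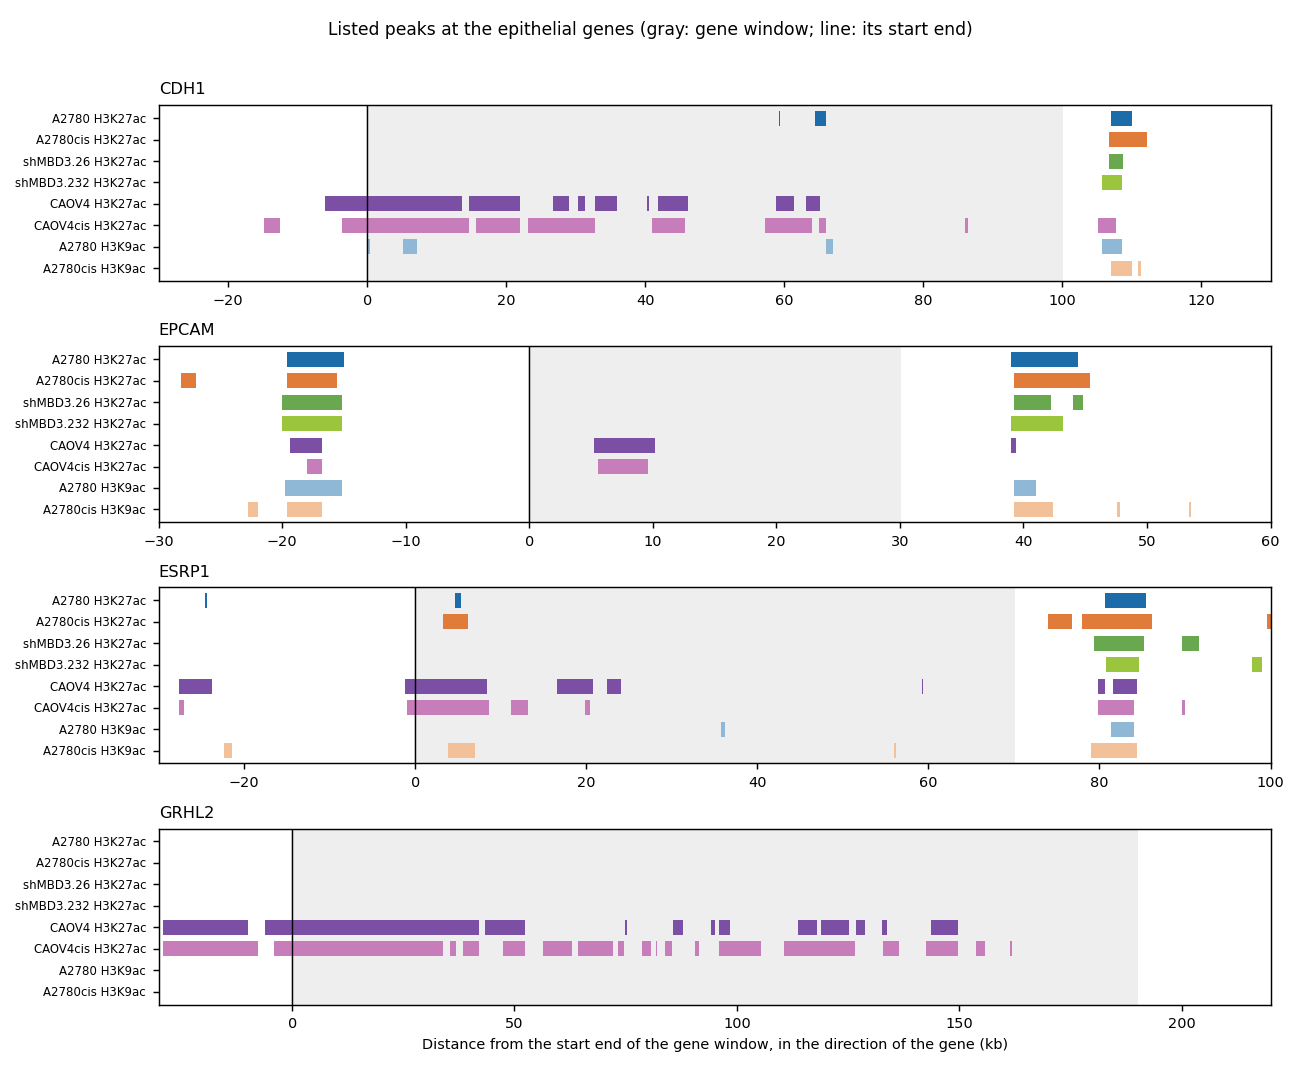
Listed peaks (bars) at *CDH1*, *EPCAM*, *ESRP1* and *GRHL2*, 1 row per list, by their distance in kb from the start end of the gene window, in the direction of the gene. The gray area is the gene window and the line its start end. The 2 CAOV4 rows have bars across or just past the start of all 4 genes, and in the *GRHL2* panel all other rows are empty.

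Summed over the 4 epithelial genes, the gene windows alone held 2.6 kb of H3K27ac in A2780, 3.0 kb in A2780cis and no peak with either shRNA, against 133.0 kb in CAOV4 and 162.0 kb in CAOV4cis. Within 10 kb of the start ends, 1 of the 4 genes had H3K27ac in A2780 and in A2780cis (*ESRP1* in both), none with an shRNA, and 4 of 4 in CAOV4 and in CAOV4cis. These windows thus held little listed H3K27ac near their start ends in the A2780 cells. H3K9ac did cover 2.4 kb near the start end of *CDH1* in A2780. The start ends are edges of windows drawn to 10 kb and not annotated starts. How many zones of this size elsewhere hold no peak was not counted, and 56.5% of the 150 kb tiles held no H3K27ac peak in A2780.

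*VIM*, on chromosome 10, had the most covered length of the mesenchymal genes in every list. H3K27ac covered 42.0 kb of its extended window in A2780, 56.6 kb in A2780cis, 34.4 kb with shMBD3.26, 34.4 kb with shMBD3.232, 6.2 kb in CAOV4 and 5.6 kb in CAOV4cis. The A2780 window was thus covered over 6.77 times the length of CAOV4. Peaks in A2780 reached from the upstream flank across the gene, and in A2780cis 1 peak of 25.4 kb spanned all of it (chr10:17262801-17288200). The surroundings differed in the same direction, as 500 kb on each side held 231.4 kb in A2780 and 36.0 kb in CAOV4, and of the 280 tiles of 70 kb with as much H3K27ac as *VIM* in A2780, 175 had as little in CAOV4, or 62.5%.

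*SNAI2*, on chromosome 8, encodes the E-box binding repressor SLUG and was covered in A2780 and A2780cis but nearly free of peaks elsewhere. H3K27ac covered 15.8 kb in A2780 and 14.8 kb in A2780cis, 0.8 kb with shMBD3.26, and no peak was listed with shMBD3.232, in CAOV4 or in CAOV4cis. The A2780 list had a peak of 6.4 kb in the gene window (chr8:49832401-49838800) and 4 more in the flank downstream of it. In A2780cis the gene window held 2 peaks (chr8:49830801-49835200 and chr8:49836201-49839400), with 3 more in the same flank. The window is drawn to 10 kb, so whether these peaks lie on the gene or beside it is not resolved. Of the 1883 tiles of 70 kb with as much H3K27ac as *SNAI2* in A2780, 438 had no peak in CAOV4, or 23.3%.

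*ZEB1*, on chromosome 10, and *ZEB2*, on chromosome 2, encode related zinc finger repressors but were covered very differently. At *ZEB1*, H3K27ac covered 7.8 kb in A2780, 5.2 kb in A2780cis, 5.8 kb with shMBD3.26, 4.4 kb with shMBD3.232 and 0.8 kb in CAOV4, and no peak was listed in CAOV4cis. A2780 was covered over 9.75 times the length of CAOV4, which had a single short peak. Among the 2744 tiles of 280 kb with as much H3K27ac in A2780, 361 had as little in CAOV4, or 13.2%. All 4 A2780 lists shared a peak near the start of the gene, from chr10:31606401-31612600 in A2780 to chr10:31606801-31611200 with shMBD3.232, and the 0.8 kb of CAOV4 fell in the same place (chr10:31607201-31608000). At *ZEB2*, by contrast, A2780 had a single peak of 0.6 kb near the start (chr2:145274201-145274800), CAOV4 and CAOV4cis had 0.4 and 0.6 kb near the other end, and no other list had a peak in the window of 200 kb.

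*CDH2*, on chromosome 18, showed no listed acetylation in 7 of the 8 lists, although its window of 290 kb was the longest of the 9. The single peak was one of 0.6 kb in the downstream flank in CAOV4cis (chr18:25501201-25501800). In the 7 lists without it, the stretch free of peaks around *CDH2* measured 4446.8 to 5131.8 kb. *CDH2* was the only one of the 5 mesenchymal genes with no peak in any list of A2780 cells, whereas *VIM* was covered in all 8 lists.

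**Figure D3:**
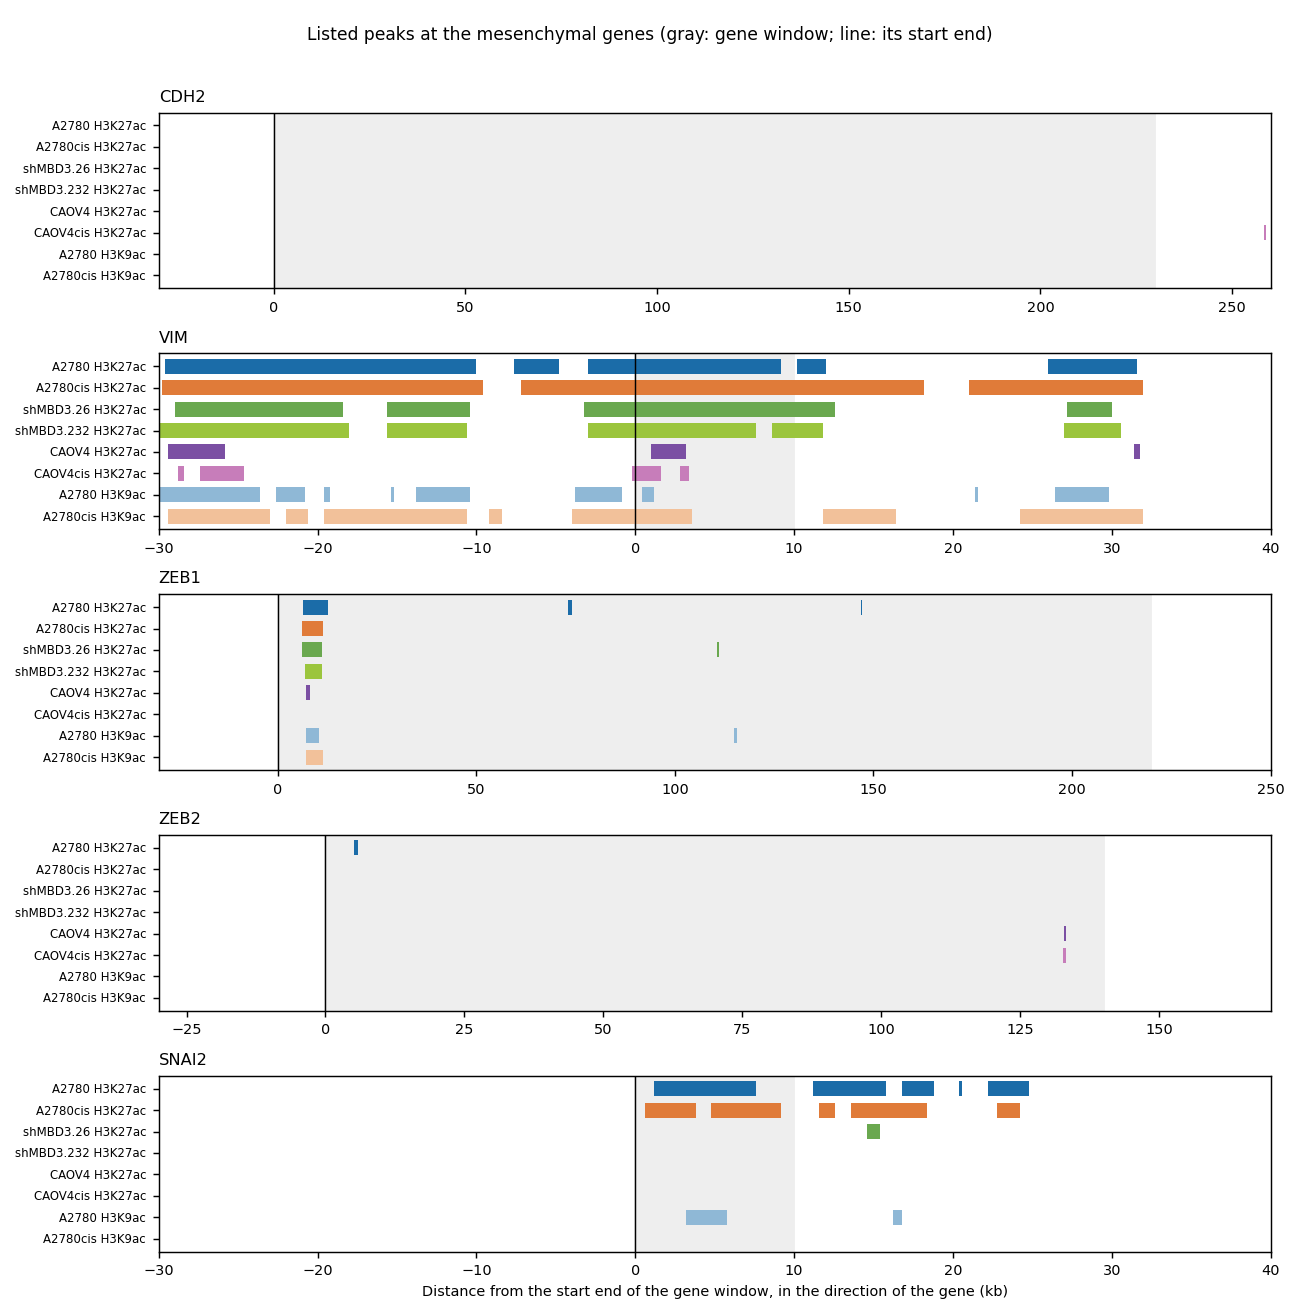
Listed peaks (bars) at *CDH2*, *VIM*, *ZEB1*, *ZEB2* and *SNAI2*, 1 row per list, by their distance in kb from the start end of the gene window, in the direction of the gene. The gray area is the gene window and the line its start end. *SNAI2* has bars in the gene window in A2780 and A2780cis for H3K27ac and in A2780 for H3K9ac, and 1 short bar in the flank with shMBD3.26.

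Promoter sequences are shown for the 4 mesenchymal genes that the RefSeq table (GRCh38.p14) holds, because *ZEB1* and *VIM* had H3K27ac near their starts in A2780 cells while *CDH2* had none and *ZEB2* only a peak of 0.6 kb. Each runs 5′ to 3′ from 250 bases before to 50 bases after a start, and capitals mark the E-box CAGGTG or its reverse complement CACCTG, the motif bound by ZEB and SNAI factors. Their GRCh38 positions were not converted to hg19, so no peak was placed on them.
ZEB1 (chr10:31318966-31319265, plus strand): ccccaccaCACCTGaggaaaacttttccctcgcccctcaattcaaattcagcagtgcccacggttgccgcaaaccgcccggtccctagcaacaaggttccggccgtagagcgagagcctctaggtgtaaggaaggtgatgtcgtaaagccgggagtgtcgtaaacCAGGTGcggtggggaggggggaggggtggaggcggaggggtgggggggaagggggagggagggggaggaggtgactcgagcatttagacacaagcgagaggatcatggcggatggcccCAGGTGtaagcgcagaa
VIM (chr10:17227991-17228290, plus strand): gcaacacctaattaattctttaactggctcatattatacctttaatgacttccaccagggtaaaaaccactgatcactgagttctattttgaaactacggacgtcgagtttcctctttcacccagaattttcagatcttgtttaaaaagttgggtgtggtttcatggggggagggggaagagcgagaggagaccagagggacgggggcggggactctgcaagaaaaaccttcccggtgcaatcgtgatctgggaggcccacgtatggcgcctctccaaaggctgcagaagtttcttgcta
ZEB2 (chr2:144520070-144520369, minus strand): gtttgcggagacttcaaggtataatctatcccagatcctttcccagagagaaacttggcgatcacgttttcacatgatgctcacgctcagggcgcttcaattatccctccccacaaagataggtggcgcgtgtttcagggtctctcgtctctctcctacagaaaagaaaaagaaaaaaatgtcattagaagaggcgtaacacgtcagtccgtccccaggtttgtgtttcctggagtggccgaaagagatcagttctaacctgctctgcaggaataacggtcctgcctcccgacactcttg
CDH2 (chr18:28177081-28177380, minus strand): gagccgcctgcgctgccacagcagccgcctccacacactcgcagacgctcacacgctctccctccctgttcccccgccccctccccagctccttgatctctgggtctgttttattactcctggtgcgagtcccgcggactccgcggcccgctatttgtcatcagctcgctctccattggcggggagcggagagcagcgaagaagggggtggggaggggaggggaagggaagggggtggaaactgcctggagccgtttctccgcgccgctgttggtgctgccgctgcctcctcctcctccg
For each gene the listed promoter with the most E-boxes is shown, or the first listed where they tie. The *ZEB1* promoter shown holds 3 E-boxes, at positions 9, 166 and 284, and the others shown hold none. It was picked for its E-boxes out of 7, so the shares of single promoters given next do not measure how rare it is. Of all 11 promoters of the 4 genes, 2 hold the motif. Of the 35116 promoters in the table, 20.6% hold at least 1 and 223 hold 3 or more, or 0.635%. The table lists 7 promoters for *ZEB1*, of which 2 hold the motif on either strand, and the 11 promoters of the 4 genes include no other with it. The motif AACCNGTT, which grainyhead-like factors bind, was found on neither strand of these 11 promoters and in 1.73% of all. The GC content was 61.7% for the *ZEB1* promoter, 67.0% for *CDH2*, 48.0% for *VIM* and 49.0% for *ZEB2*, against a median of 58.7%. The other promoters in the table differed, with 42.0% to 72.3% over the 7 of *ZEB1* and 40.7% for the second of *CDH2*. The letters describe these windows and not the binding of a factor.

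In A2780cis, most of these genes had about the covered length of A2780, and 1 of 6 windows was called for H3K27ac. *ESRP1* was higher, with 14.4 kb against 5.8 kb, a ratio of 2.48, and none was lower. Among the 1899 tiles of 130 kb with as much in A2780cis, 164 had as little in A2780, or 8.64%. Of the 6711 tiles compared, 13.2% were called higher and 16.3% lower. The start of *ESRP1* contributed 3.0 kb against 0.8 kb, and the downstream flank on the side of *DPY19L4* contributed 11.4 kb against 4.8 kb. *VIM* differed by 14.6 kb at a ratio of 1.35, and *ZEB1* by −2.6 kb at a ratio of 0.667, and both were outside the call. The median difference over the 6 windows was 1.0 kb, and over the tiles it was 0.2 kb. Joining peaks of A2780 and A2780cis wherever they overlapped by 1 bp or more gave 22 regions. Of these, 10 were in 1 list only, or 45.5% (26.9% to 65.3%, 95% Wilson interval, counting error only). Over all regions merged from the same pair of lists this share was 56.0%.

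H3K9ac, read from separate libraries of the same lines, gave 2 called windows of 6. *ESRP1* was higher in A2780cis, with 9.8 kb against 3.0 kb, a ratio of 3.27, and *SNAI2* was lower, with no peak against 3.2 kb. Among tiles as long as the window and with as much in the higher list, 9.12% had as little in the other as *ESRP1*. For *SNAI2* this share was 12.5%. Over the genome, 18.8% of the 5630 tiles were higher and 20.6% lower. A peak at the *ESRP1* start was listed in A2780cis (chr8:95653801-95657000, 3.2 kb) and not in A2780. At *SNAI2*, A2780 had a peak of 2.6 kb in the gene window (chr8:49834201-49836800), where A2780cis had H3K27ac but no H3K9ac peak. *VIM* lay just outside the call, with 37.6 kb against 19.6 kb and a ratio of 1.92, and *CDH1* likewise, with 3.4 kb against 6.2 kb and a ratio of 0.548. *CDH1* was the 1 gene with H3K9ac but no H3K27ac near its start in A2780, in peaks of 0.4 and 2.0 kb (chr16:68770001-68770400 and chr16:68775201-68777200), and neither was listed in A2780cis. Of 27 merged regions, 17 were in 1 list only, or 63.0% (44.2% to 78.5%), and over the genome it was 67.6%.

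Within a line, most of the H3K9ac length of the 9 windows lay under H3K27ac, with 81.5% in A2780 and 93.6% in A2780cis. Over the whole lists these shares were 78.7% and 87.1%. *CDH1* in A2780 differed, with 25.8% and with more H3K9ac (6.2 kb) than H3K27ac (4.8 kb). In A2780, H3K9ac lay on 39.6% of the H3K27ac length of the 9 windows, against 44.0% over the whole lists, and in A2780cis on 54.2%, against 50.6%. The share at *ZEB1* was 41.0% in A2780 and 84.6% in A2780cis, at *VIM* 43.3% and 65.0%, at *CDH1* 33.3% and 63.0%, at *ESRP1* 44.8% and 54.2%, and at *EPCAM* 62.0% and 52.6%. *SNAI2* had the lowest share of these 6 genes in both lines, with 16.5% in A2780 and 0% in A2780cis. *GRHL2* and *CDH2* had neither mark in these 2 lines.

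In the second pair, CAOV4cis against CAOV4, none of 5 windows was called, and over the genome 17.7% of the 6314 tiles were higher and 14.1% lower. No test was made, and any size of difference rests on 1 library on each side. *GRHL2* differed by 26.8 kb at a ratio of 1.26 and *CDH1* by 9.2 kb at a ratio of 1.21. *EPCAM* was nearest to the call, with 5.2 kb against 8.0 kb and a ratio of 0.65, and *ESRP1* had a ratio of 0.757. Inside the *GRHL2* window, 7 merged regions were in both lists, 9 in CAOV4cis only and 4 in CAOV4 only, where 33.8% of all merged regions were in CAOV4cis only and 29.1% in CAOV4 only. The wide domain at the start of *GRHL2* was in both. Of 47 merged regions at the 9 genes, 26 were in 1 list only, or 55.3% (41.2% to 68.6%), and over the genome it was 62.9%.

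With *MBD3* shRNAs, *SNAI2* was called lower with both. Its window held 15.8 kb in A2780, 0.8 kb with shMBD3.26 and no peak with shMBD3.232. Of 6 windows each, shMBD3.26 gave 2 called lower, *SNAI2* and *CDH1*, and shMBD3.232 gave 1, and none was higher with either. Among the tiles, 11.6% were called lower and 3.32% higher with shMBD3.26, and 16.2% lower and 2.04% higher with shMBD3.232. Both comparisons use the same A2780 list, so that they are not independent of each other. Both shRNA lists also covered less of the genome than A2780, with 78.6 and 80.8 Mb against 98.9 Mb, and the median difference over the tiles was −1.6 and −1.8 kb.

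Few of the tiles that were covered as much as *SNAI2* in A2780 had as little with an shRNA. Of the 1883 tiles of 70 kb with at least 15.8 kb of H3K27ac in A2780, 12 had no more than 0.8 kb with shMBD3.26, or 0.637%, and 48 had no peak with shMBD3.232, or 2.55%. These shares describe the lists and are no test. The neighborhood was covered over less length as well, as 500 kb on each side of *SNAI2* held 29.2 kb in A2780, 17.6 kb in A2780cis, 5.8 kb with shMBD3.26 and 2.6 kb with shMBD3.232, and it was called lower with both. The single peak left with shMBD3.26 lay in the flank (chr8:49824601-49825400), inside the span of a peak of 4.6 kb in A2780. The resistant A2780cis cells had 14.8 kb at *SNAI2*, within 1.0 kb of A2780.

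The other genes differed less between the shRNA lists and A2780. *CDH1* had 2.0 kb with shMBD3.26, a ratio of 0.417 to the 4.8 kb of A2780, and 2.8 kb with shMBD3.232, a ratio of 0.583 that was outside the call. *VIM* had 34.4 kb with both shRNAs against 42.0 kb, *ZEB1* had 5.8 and 4.4 kb against 7.8 kb, and *EPCAM* had 8.6 and 9.0 kb against 10 kb. Scaled to the total covered length of each list, the differences at *VIM*, *EPCAM* and, with shMBD3.232, *ESRP1* changed sign, and the call of *CDH1* with shMBD3.26 was lost, so that *SNAI2* alone was called. *ESRP1* had 7.8 and 5.0 kb against 5.8 kb, all of it in the downstream flank with both shRNAs. The median difference over the 6 windows was −2.4 kb with shMBD3.26 and −2.7 kb with shMBD3.232. Merged regions in 1 list only numbered 15 of 24 with shMBD3.26, or 62.5% (42.7% to 78.8%), and 14 of 22 with shMBD3.232, or 63.6% (43.0% to 80.3%), where the genome gave 52.0% and 51.0%.

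**Figure D4:**
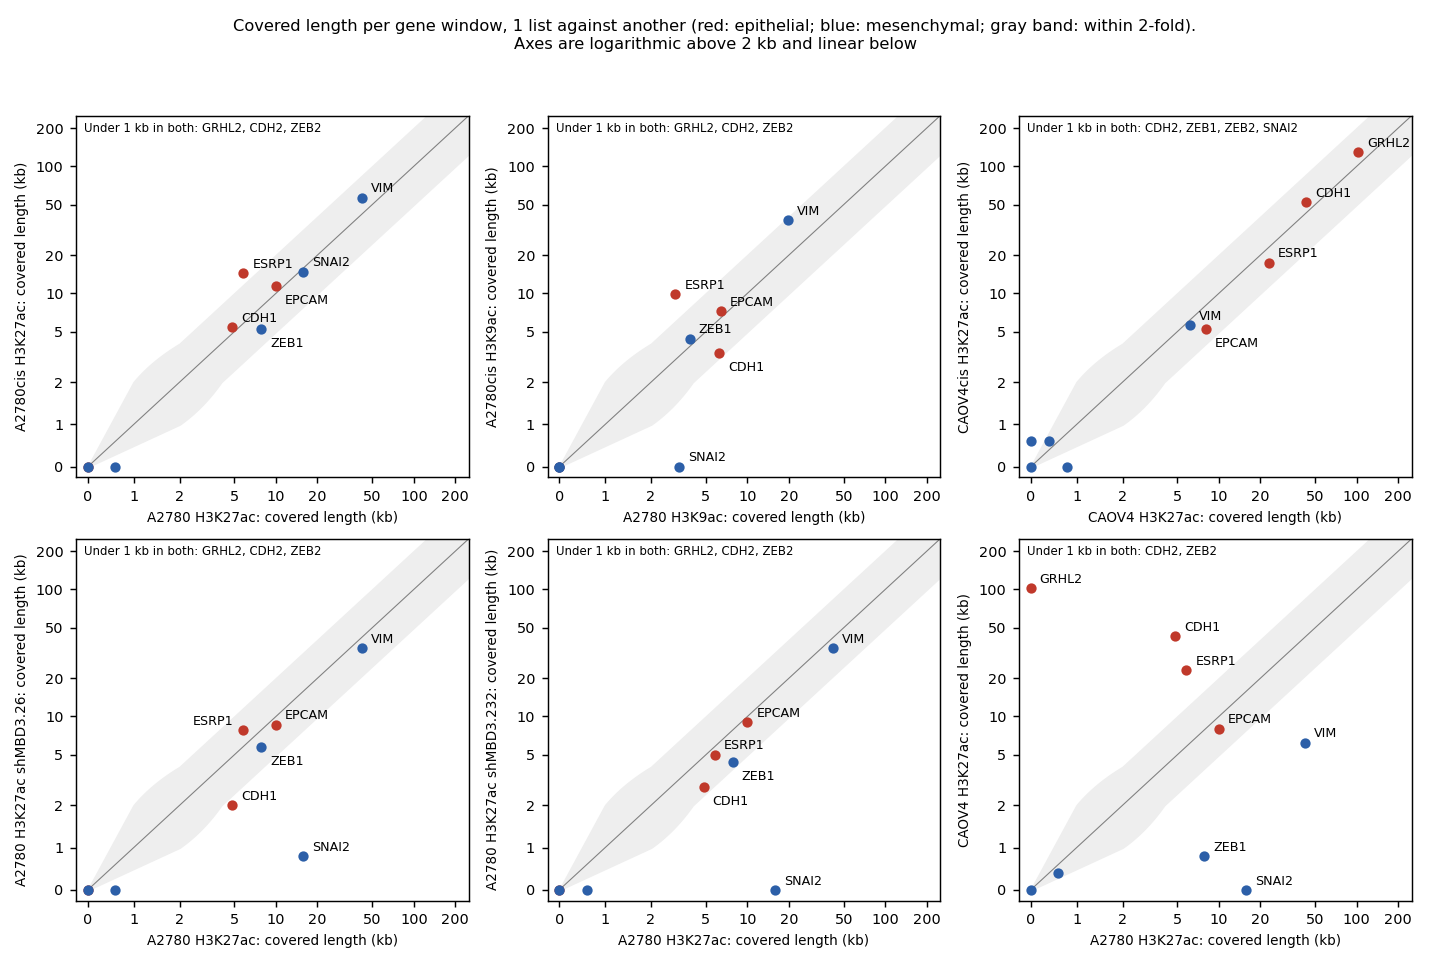
Covered length in kb of each extended gene window in 1 list (y axis) against another (x axis) for the 6 comparisons, with red points for epithelial and blue points for mesenchymal genes. Axes are logarithmic above 2 kb and linear below, and the gray band holds ratios within 2-fold. In the panel of CAOV4 against A2780, *GRHL2*, *CDH1* and *ESRP1* lie above the band and *VIM*, *ZEB1* and *SNAI2* below it, and *SNAI2* lies far below the band in both shRNA panels.

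The lists were also compared by the length they shared over the 9 windows, as a percentage of the length covered by either. A2780 shared 64.1% with A2780cis, 55.9% with shMBD3.26 and 56.5% with shMBD3.232, and the shRNA lists shared 76.9% with each other. A2780 and CAOV4 shared 5.72%, and A2780cis and CAOV4cis 4.95%, where CAOV4 and CAOV4cis shared 57.6%. Over the whole lists the same values were 44.4%, 56.2%, 57.0%, 60.6%, 22.1%, 22.9% and 44.8%. Taken by group, A2780 and A2780cis shared 52.4% at the epithelial and 68.8% at the mesenchymal genes, and CAOV4 and CAOV4cis 58.8% and 31.5%, the latter below their value over the whole lists. These shares are descriptions, and no test was made. Of 47 merged regions of A2780 and CAOV4 at the 9 genes, 36 were in 1 list only, or 76.6% (62.8% to 86.4%), against 75.5% of all. They were split by group: of the 32 at epithelial genes, 24 were listed in CAOV4 only and 1 in A2780 only, and of the 15 at mesenchymal genes, 1 was listed in CAOV4 only and 10 in A2780 only. Over the genome, 31.2% of the merged regions were in CAOV4 only and 44.3% in A2780 only.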

How the data were processed

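The authors sequenced mononucleosome ChIP libraries with a D. melanogaster spike-in of 5%, mapped the reads in Galaxy with Bowtie2, applied quantile normalization by an R script and called peaks with MACS2, separately for each sample. The submitters' processing notes name hg19 (GRCh37). They deposited 1 peak list per sample. In the deposited lists the score is 0 throughout, and it was left aside. The boundaries of all peaks used lie on a grid of 200 bp, and the sources used here name no step that gives this layout. Peaks off the standard chromosomes were left out, 6 in all, and no list held a peak on chromosomes 20 to 22. No list held a peak beyond 181.1 Mb on chromosome 2, 131.7 Mb on chromosome 8 or 129.9 Mb on chromosome 10. Values over the genome or the whole lists thus refer to the listed part only. All 9 windows lie inside the listed extent of their chromosomes. Input libraries and cells with a control shRNA were not analysed here, nor was the level of *MBD3*.

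Covered length was summed per window, gene window, flank, zone of 10 kb on either side of the start end, and surroundings of 500 kb per side. Called windows had a ratio of at least 2 and a difference of at least 2 kb, and needed 2 kb in 1 list. The same rule was applied to tiles of 150 kb, and covered length was also compared over tiles as long as the gene's own window. Peaks sharing at least 1 bp were merged into regions, with 95% Wilson intervals that cover counting error only. With 1 list per condition, no p-value was computed. The named genes are the 9 of the rule and the genes RefSeq (GRCh38.p14) places beside them, which served for names and promoter sequences and not for positions on hg19. 1 of these neighbors is not reported here. Other genes of the pathway were to be described only with an annotation of hg19 and were not analysed here. Genes, windows and lists were chosen with earlier results of these data known. Alternatives were other extensions, peaks over 2 kb, equal numbers of the widest peaks, scaling to the total covered length, other ratios, an overlap of 50% of the shorter peak and a distance of 5 kb. Python 3.11.15, SciPy 1.17.1, pandas 2.3.3, numpy 2.4.6 and matplotlib 3.10.9 were used, and the scripts for covered length and calls were tested on simulated data.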

Additional observations from a re-analysis of the deposited data

Results flagged for a closer look

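The differences at *ESRP1* had opposite signs in the cell line pairs, and the one of CAOV4cis was not called. H3K27ac covered 8.6 kb more of its window in A2780cis than in A2780, and 5.6 kb less in CAOV4cis than in CAOV4 (−5.6 kb), so that the differences were 14.2 kb apart. With 1 list per condition, the difference between the pairs was not tested. At the start of the gene the peak measured 0.8 kb in A2780 and 3.0 kb in A2780cis, and 9.6 kb in both CAOV4 lines. Most of the length by which A2780cis exceeded A2780 lay in the downstream flank, with 11.4 kb against 4.8 kb.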

How the results depend on the processing

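Over the alternatives, no called difference in covered length changed sign, and of 324 differences, taken as a share of the length of their window, 278 stayed within a 95% interval of the main share that counts bins of 200 bp and 46 did not, some of these only because the same length fell in a window of another size. Some uncalled differences changed sign, such as *VIM* with shMBD3.26 (−7.6 kb) and shMBD3.232 (−7.6 kb), at 1.0 and 0.07 kb when scaled to the total covered length, and *VIM* in A2780cis for H3K27ac (14.6 kb), at −7.0 kb with an extension of 100 kb. *SNAI2* was called lower with both shRNAs, and *CDH1*, *ESRP1*, *GRHL2*, *VIM*, *ZEB1* and *SNAI2* were called between CAOV4 and A2780, under every alternative. For H3K27ac in A2780cis, the 1 called window (*ESRP1*) became 0 with an extension of 100 kb or a ratio of 3, and 2 with a ratio of 1.5 (*ZEB1* added). For H3K9ac, the 2 called windows became 4 with no extension, with one of 10 kb or with a ratio of 1.5 (*VIM* and *CDH1* added), and 3 with an extension of 100 kb, peaks over 2 kb or the same number of widest peaks. For CAOV4cis, 0 became 1 with peaks over 2 kb (*VIM*) or a ratio of 1.5 (*EPCAM*). For shMBD3.26, 2 became 1 with no extension, the same number of widest peaks, scaling or a ratio of 3, in each case without *CDH1*. For shMBD3.232, 1 became 2 with an extension of 100 kb (*CDH1* added) and 3 with a ratio of 1.5 (*CDH1* and *ZEB1* added). Regions in 1 list only numbered, with peaks over 2 kb, 3 for A2780cis H3K27ac, 4 for H3K9ac, 12 for CAOV4cis, 5 for shMBD3.26 and 4 for shMBD3.232, and with the same number of widest peaks they were 3, 16, 6 and 6 for the H3K27ac comparisons in that order. With a distance of 5 kb, those of CAOV4cis were 10. These alternatives leave out narrow peaks or join neighbors by construction, and the cause of the other moves was not tested. No paired analysis was possible because each condition has 1 list and the labels carry no replicate numbers, and for the same reason no replicate could be left out. The unknown read depth limits what a missing peak means, since signal under the authors' threshold is not listed.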
